A study of Homo sapiens with 6 samples.

Results

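In LP-1 cells depleted of RNF5, 17 genes of the deposited table went from near 0 in every control library to a low but measurable level in every knockdown library. LP-1 is an established human multiple myeloma cell line, a tumour of plasma cells, and RNF5 is a ubiquitin ligase anchored in the membrane of the endoplasmic reticulum. One group of 3 libraries came from cells in which a short hairpin RNA had depleted RNF5, and the control group of 3 came from cells given a non-target control. Both groups grew in the same RPMI medium with serum. The sources used here name neither the number of hairpins nor any clone, and do not say whether the 3 libraries of a group were grown apart, so p-values measure only the spread between these libraries, which may be technical. RNF5 itself stood at 95.4, 81.3 and 88.4 in the knockdown libraries against 1595, 1649 and 1248 in the controls.

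The 17 genes were chosen by their values in these same 6 libraries. A gene had to have its highest control value under 0.5 and its lowest knockdown value at 1 or more, and genes without a name, with names of several numbered families or with a hyphen, and CCR3, EGR1 and EGR3 were left out. Of the 1877 genes of the table, 316 met the control limit, 30 met both limits and 17 remained after the 13 removals by name. The difference between the groups, and the absence of overlap between them, were therefore fixed by the choice and are given as a description with no test. All 17 are listed as higher by the authors, as are 49.2% of the whole table, and for 47.7% of the table every knockdown value lay above every control value. Nothing is read from the members' count against these shares, since the rule used the same contrast.

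Genes at this level lie at the edge of what an RNA-seq library records. A gene can be silent because its promoter is packed in closed chromatin or lacks its activating factors, and many genes of muscle, nerve and germ line are held silent in blood cells in this way. A low value in a bulk library can come from a small number of cells with the transcript or from little RNA in each cell, and these cannot be told apart here. The values are normalized abundances on a scale that the sources used here do not give. They behave as values per length: among genes with a 0 in some library, the smallest value above 0 had a median of 0.25 for 23 genes with transcripts up to 1000 bases and 0.03 for 55 genes with transcripts over 4000 bases. Sequencing depth is unknown, so no counting interval can be given for values this low.

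Promoters are shown first, because the 17 genes share a change but were not chosen on sequence. RefSeq promoters (GRCh38.p14, from 250 bases before to 50 bases after the gene start, 300 in all) were found for 14 of the 17. The 3 without an entry are YY2, RPL23AP29 and GGNBP1. Below are the first listed promoters of the 6 protein-coding members with the highest knockdown means, written 5′ to 3′ on the strand of the gene. Capitals mark the matches to the 9 motifs searched. They lie at chr3:119145971-119146270 (minus strand, IGSF11), chr18:3219919-3220218 (minus strand, MYOM1), chr7:102650069-102650368 (plus strand, SPDYE2B), chr2:153478713-153479012 (minus strand, RPRM), chr3:109118085-109118384 (minus strand, MORC1) and chr13:87671121-87671420 (plus strand, SLITRK5).
IGSF11: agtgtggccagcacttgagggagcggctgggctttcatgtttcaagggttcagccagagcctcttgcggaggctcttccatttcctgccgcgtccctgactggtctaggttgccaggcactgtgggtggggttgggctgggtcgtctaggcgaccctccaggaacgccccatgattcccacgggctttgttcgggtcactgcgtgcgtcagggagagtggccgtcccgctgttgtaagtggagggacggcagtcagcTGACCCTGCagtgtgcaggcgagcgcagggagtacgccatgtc
MYOM1: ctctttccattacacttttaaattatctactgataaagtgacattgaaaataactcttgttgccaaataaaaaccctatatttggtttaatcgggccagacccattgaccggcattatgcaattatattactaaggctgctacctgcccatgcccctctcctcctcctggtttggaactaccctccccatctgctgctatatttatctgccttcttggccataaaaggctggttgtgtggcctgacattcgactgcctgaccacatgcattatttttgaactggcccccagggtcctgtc
SPDYE2B: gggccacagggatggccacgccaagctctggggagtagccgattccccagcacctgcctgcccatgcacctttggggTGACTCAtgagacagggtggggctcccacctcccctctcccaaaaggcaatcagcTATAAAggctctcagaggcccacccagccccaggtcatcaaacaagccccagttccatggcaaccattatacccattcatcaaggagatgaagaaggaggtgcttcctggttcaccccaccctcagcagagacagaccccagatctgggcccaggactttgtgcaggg
RPRM: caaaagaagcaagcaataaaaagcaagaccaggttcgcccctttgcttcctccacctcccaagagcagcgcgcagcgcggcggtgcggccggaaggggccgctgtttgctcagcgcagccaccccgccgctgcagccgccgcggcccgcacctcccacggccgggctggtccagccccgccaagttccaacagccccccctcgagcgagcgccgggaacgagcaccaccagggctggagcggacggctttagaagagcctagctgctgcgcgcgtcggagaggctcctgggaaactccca
MORC1: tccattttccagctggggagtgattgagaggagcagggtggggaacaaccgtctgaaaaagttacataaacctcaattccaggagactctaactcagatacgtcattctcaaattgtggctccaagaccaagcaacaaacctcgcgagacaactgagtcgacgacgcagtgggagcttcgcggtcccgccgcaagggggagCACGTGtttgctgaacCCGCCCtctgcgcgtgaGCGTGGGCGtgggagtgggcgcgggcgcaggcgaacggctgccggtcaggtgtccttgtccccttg
SLITRK5: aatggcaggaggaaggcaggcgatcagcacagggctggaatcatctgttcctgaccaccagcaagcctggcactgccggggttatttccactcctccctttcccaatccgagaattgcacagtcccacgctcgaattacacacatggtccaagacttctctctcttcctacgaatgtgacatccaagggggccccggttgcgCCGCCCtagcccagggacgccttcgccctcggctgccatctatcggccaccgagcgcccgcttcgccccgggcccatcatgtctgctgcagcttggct

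The 14 promoters were mixed in composition. Their GC content had a median of 61.5%, against 58.3% over 27305 genes with a promoter in the same tables, and 8 of the 14 (57.1%) reached 60% against 46.1% of all. SEMA5A (81.0% GC, 39 CpG dinucleotides) and CACNA1C (82.3%, 54 CpG) lay at one end, both with CpG-rich promoters. KCNMB2 (42.7%, 5 CpG) and MYOM1 (44.3%, 3 CpG) lay at the other, while the promoters of HRC (63.0% GC, 4 CpG) and SPDYE2B (59.3%, 2 CpG) held few CpG for their GC content. No single base composition was common to the set.

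Both strands of each promoter were searched for 9 motifs. The GC box GGGCGG, bound by SP1, was found in 7 of the 14 (50%, against 44.6% of all promoters), namely MORC1, SLITRK5, SEMA5A, MYORG, HECW1, CACNA1C and CCN2. The TATA box TATAAA was found in SPDYE2B and CCN2 (14.3%, against 12.0%). MORC1 held both the E-box CACGTG (7.43% of all promoters) and, between bases -16 and -8 relative to its start, the EGR-type motif GCGTGGGCG (0.784% of all promoters). SPDYE2B held the AP-1 motif TGACTCA (4.92% of all promoters) and IGSF11 the antioxidant-type motif TGACNNNGC (13.6%). The antioxidant-type motif can overlap the AP-1 motif, and the EGR-type motif the GC box. The cAMP-response motif TGACGTCA (1.98% of all promoters), the heat-shock-type motif GAANNTTC (6.87%) and the STAT-type motif TTCNNNGAA (7.88%) were found in none of the 14. A match is a description of letters and not of a bound site, and no motif was common to the members.

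**Figure D1:**
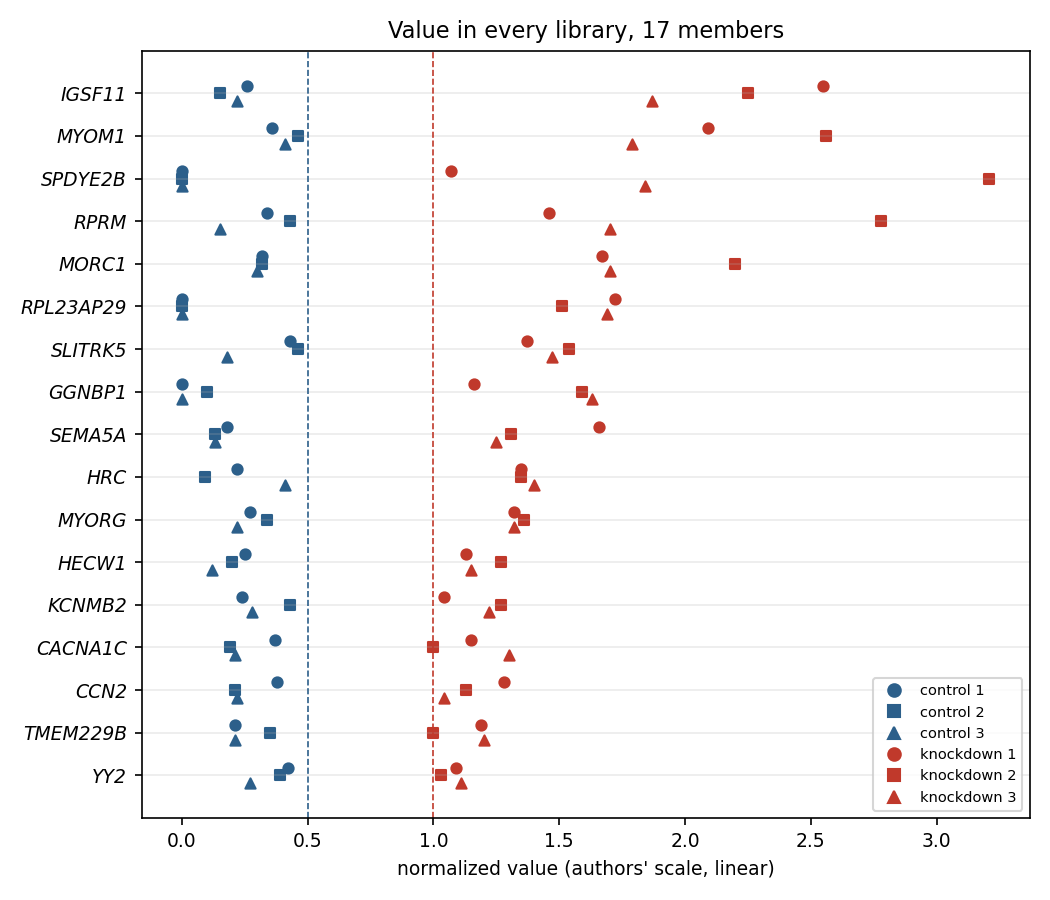
Normalized value (horizontal axis, linear, authors' scale) of each of the 17 genes in the 3 control libraries (blue) and the 3 knockdown libraries (red), with the 2 limits of the rule at 0.5 and 1 as dashed lines. The gap between the groups is fixed by the rule, the highest knockdown values belong to SPDYE2B (3.21) and RPRM (2.78), both in knockdown library 2, and 11 of the 17 genes have a knockdown mean under 1.5.

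The first group encodes proteins of the cell surface and its surroundings. IGSF11 (ENSG00000144847, chromosome 3), an immunoglobulin-family adhesion molecule, had the highest knockdown mean of the 17, with 2.55, 2.25 and 1.87 in the knockdown libraries against 0.26, 0.15 and 0.22 in the controls (means 2.22 ± 0.341 and 0.210 ± 0.0557, SD, n = 3 each, as for all means below). Its ratio of means, 10.6, was the largest of the 14 genes for which a ratio could be formed, those above 0 in every control library. SEMA5A (ENSG00000112902, chromosome 5), a transmembrane semaphorin known as a guidance cue of nerve and vessel growth, stood at 1.66, 1.31 and 1.25 against 0.18, 0.13 and 0.13, a ratio of 9.59. Its means were 1.41 ± 0.221 and 0.147 ± 0.0289, and library 1 was the highest of both groups. SLITRK5 (ENSG00000165300, chromosome 13), a leucine-rich repeat protein that shapes neurites and synapses, stood at 1.37, 1.54 and 1.47 against 0.43, 0.46 and 0.18, a ratio of 4.09. The third control of SLITRK5 was well below the other two.

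CCN2 (ENSG00000118523, chromosome 6), also called CTGF, is a secreted matricellular protein and a well-known target of the YAP and TEAD transcription factors. It stood at 1.28, 1.13 and 1.04 against 0.38, 0.21 and 0.22 (means 1.15 ± 0.121 and 0.270 ± 0.0954, ratio 4.26). In both groups library 1 was the highest, and the 3 knockdown values differed by a factor of 1.23.

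A second group is known from muscle and excitable cells. MYOM1 (ENSG00000101605, chromosome 18) encodes myomesin, which links thick filaments in the M-band of the sarcomere, and stood at 2.09, 2.56 and 1.79 against 0.36, 0.46 and 0.41 (means 2.15 ± 0.388 and 0.410 ± 0.05, ratio 5.24). It had the highest control mean of the 17. HRC (ENSG00000130528, chromosome 19), a calcium-binding protein of the sarcoplasmic reticulum, was nearly level in the knockdown libraries at 1.35, 1.35 and 1.40, while its controls ranged from 0.09 to 0.41 (0.22, 0.09 and 0.41, ratio of means 5.69). For HRC the spread lay in the controls and not in the knockdown libraries. CACNA1C (ENSG00000151067, chromosome 12), the pore-forming subunit of the L-type calcium channel of heart and smooth muscle, stood at 1.15, 1 and 1.30 against 0.37, 0.19 and 0.21 (ratio 4.48), with its lowest knockdown value exactly on the limit. KCNMB2 (ENSG00000197584, chromosome 3), a regulatory subunit of the large-conductance calcium-activated potassium channel, stood at 1.04, 1.27 and 1.22 against 0.24, 0.43 and 0.28 (ratio 3.72). It showed the smallest ratio of these 4 genes.

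Another group is known from the germ line and the cell cycle. MORC1 (ENSG00000114487, chromosome 3), an ATPase required in male germ cells for silencing of transposable elements, stood at 1.67, 2.20 and 1.70 against 0.32, 0.32 and 0.30 (means 1.86 ± 0.298 and 0.313 ± 0.0115, ratio 5.93). Its 3 controls were the closest together of the genes with control values above 0. RPRM (ENSG00000177519, chromosome 2) encodes reprimo, a p53-dependent mediator of arrest at G2, and stood at 1.46, 2.78 and 1.70 against 0.34, 0.43 and 0.15 (ratio 6.46). Library 2 was the highest of both groups for RPRM, and its knockdown values differed by a factor of 1.90.

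SPDYE2B (ENSG00000173678, chromosome 7), of the Speedy/RINGO family of activators of cyclin-dependent kinases, stood at 1.07, 3.21 and 1.84 after knockdown and was listed at 0 in all 3 controls. This was the widest spread of the 17, a factor of 3 between knockdown libraries 2 and 1. The log2 fold change in the authors' deposited table was 8.48 for SPDYE2B, the largest of the members, and no fold can be formed from the library values against 0. GGNBP1 (ENSG00000293518, chromosome 6), which RefSeq lists as a transcribed pseudogene of gametogenetin-binding protein, stood at 1.16, 1.59 and 1.63 against 0, 0.10 and 0. Of the 17 genes, SPDYE2B, GGNBP1 and RPL23AP29 were the ones listed at 0 in some control library.

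The remaining 5 genes are of diverse kinds. HECW1 (ENSG00000002746, chromosome 7), a HECT-type ubiquitin ligase known mainly from neurons, stood at 1.13, 1.27 and 1.15 against 0.25, 0.20 and 0.12 (means 1.18 ± 0.0757 and 0.190 ± 0.0656, ratio 6.23). MYORG (ENSG00000164976, chromosome 9), a glycosidase of the endoplasmic reticulum first described in muscle differentiation, was the most even of all in the knockdown libraries, with 1.32, 1.36 and 1.32 against 0.27, 0.34 and 0.22 (ratio 4.82). TMEM229B (ENSG00000198133, chromosome 14), a transmembrane protein, stood at 1.19, 1 and 1.20 against 0.21, 0.35 and 0.21 (ratio 4.40). HECW1, like RNF5, attaches ubiquitin, but the 2 ligases belong to different classes.

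YY2 (ENSG00000230797, chromosome X), an intronless relative of the zinc finger transcription factor YY1, stood at 1.09, 1.03 and 1.11 against 0.42, 0.39 and 0.27. Its ratio of means, 2.99, was the smallest of the 14. RPL23AP29 (ENSG00000214024, chromosome 2), a processed pseudogene of the ribosomal protein gene RPL23A, stood at 1.72, 1.51 and 1.69 after knockdown and was listed at 0 in all 3 controls. Reads of RPL23AP29 may come from its abundant parent gene or other copies, and its transcript of 453 bases is the shortest of the set. The reads behind SPDYE2B may likewise be shared with near-identical Speedy copies, so both values are uncertain.

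Among the 14 genes with a ratio, the median ratio of means was 5.03. On a log2 scale with 0.1 added to both means, the 17 genes had a median of 2.14 (range 1.35 to 4.42), beside a median of 1.40 for all 924 genes listed as higher and -0.47 for all 1877 genes. The authors' own log2 fold changes for the members ran from 1.40 (YY2) to 8.48 (SPDYE2B), with a median of 2.36. Over 431 genes with both means of 5 or more, the log2 ratio of means exceeded the authors' value by a median of 0.173. Ratios here should be read against that shift. For the 14 members the median gap was 0.176, with the log2 ratio above the authors' value in 12, and the widest gap was for HRC, whose fold change in the authors' deposited table was 9.55.

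Most of the 17 genes stood at similar values in the 3 knockdown libraries. In 15 of the 17 the knockdown values lay within a factor of 1.5, with RPRM and SPDYE2B as the exceptions. The medians over the members were 1.32, 1.36 and 1.40 in knockdown libraries 1, 2 and 3. Knockdown library 2 was the highest in 8 genes and library 1 the lowest in 9, with ties counted. Summed over the members, the knockdown libraries reached 24.3, 28.4 and 24.7 and the controls 4.25, 4.25 and 3.33. Control library 3 was lowest or tied for lowest in 11 genes. The part of differences between single libraries in the members' values was not tested.

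The limits of the rule cut through a continuum. Just inside the control limit were MYOM1 and SLITRK5 (highest control 0.46 each), and KCNMB2 and RPRM (0.43 each). Just outside it, with a highest control of 0.50, were KREMEN1, PCDHGA6, TMEM266 and USP43. Just inside the knockdown limit were CACNA1C and TMEM229B (lowest knockdown value 1 each) and YY2 (1.03), and just outside were FLG (0.99), IL36A and TPPP (0.98 each). Without the first control library 38 genes met the rule, and without the second 27, so the membership rests in part on single values.

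**Figure D2:**
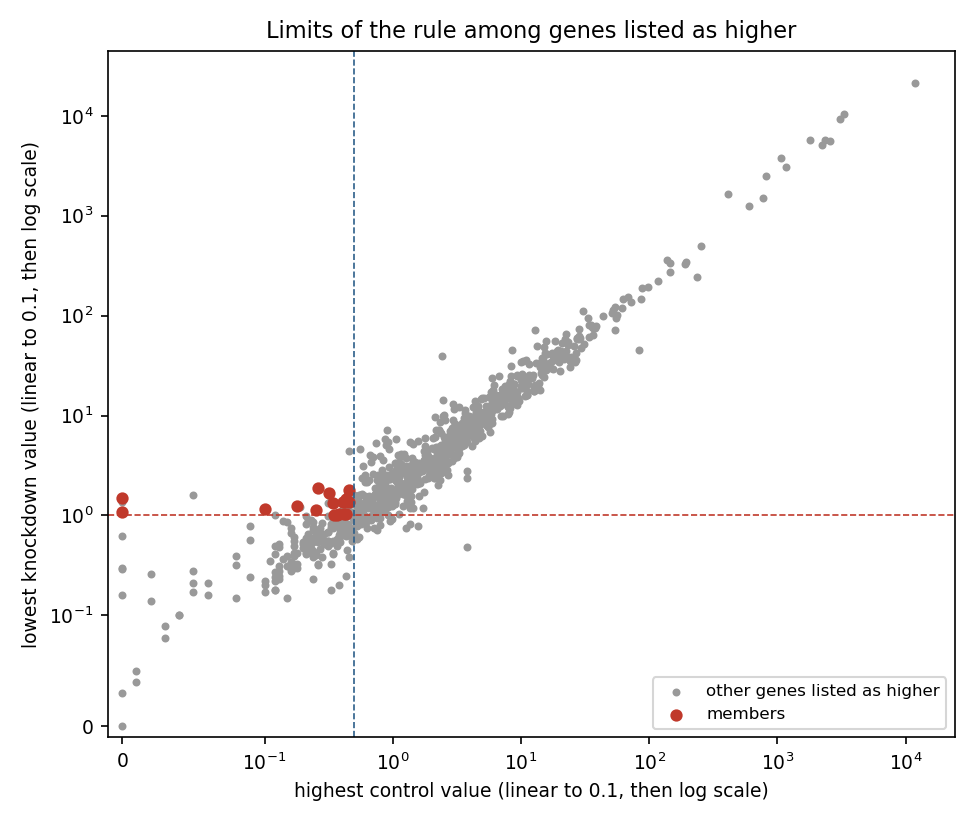
Highest control value (horizontal axis) against lowest knockdown value (vertical axis) for the 924 genes that the authors listed as higher, both axes linear up to 0.1 and on a log scale above. The 17 members (red) fill the upper left corner set by the limits of 0.5 and 1 (dashed lines), next to a continuous band of other genes; grey points in that corner are the 13 genes left out by name.

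Most genes that were near silent in the control stayed under the knockdown limit. Under the same rule on names, 94 other genes with a highest control value under 0.5 were listed as higher. Their knockdown means had a median of 0.620 against 1.41 for the members, a gap that the knockdown limit largely sets. Their control means had a median of 0.157 against 0.257. Of those 94, 86 (91.5%) are protein coding in GENCODE 29, as are 15 of the 16 members with an entry (93.8%). The longest transcript had a median of 4934 bases in the 94 genes and 3644 in the members, which ranged from 453 bases (RPL23AP29) to 21103 (SLITRK5). No difference between the 2 sets was tested. In the opposite direction, 20 genes met the mirrored limits, with the highest knockdown value under 0.5 and the lowest control value at 1 or more.

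Most of the 17 genes were scattered over the genome, on 12 chromosomes, but RPRM and RPL23AP29 lay close together on chromosome 2. In GENCODE 29 (GRCh38) the gap between them is 106 kb, and the genes between them are the pseudogene TUBAP13 and a small nucleolar RNA gene. TUBAP13 is itself in the table, and stood at 0.54, 1.59 and 1.38 in the knockdown libraries against 0.26, 0.18 and 0 in the controls. For RPRM and RPL23AP29 the rule itself fixes that the knockdown values lay above the controls. Those of TUBAP13 did so too, as for 47.7% of the whole table, although it missed the limit in knockdown library 1. Whether the stretch changed as a unit was not tested. RPL23AP29 is on the plus strand and the other two are on the minus strand, where RPRM also lies within the longer annotated RNA gene AC012501.1. TUBAP13 and RPL23AP29 are processed copies of other genes, and reads shared with those genes were not tested. TUBAP13 was named after its values were seen.

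**Figure D3:**
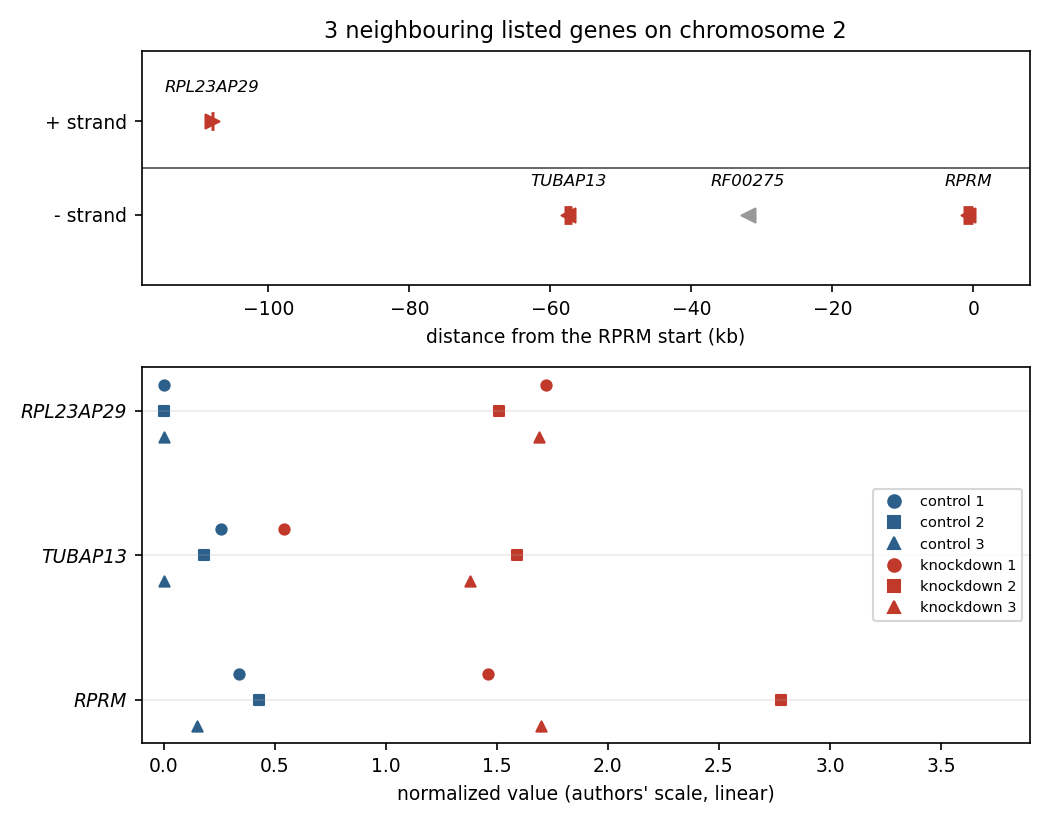
The upper panel maps RPL23AP29, TUBAP13, a small nucleolar RNA gene that is not in the table (grey) and RPRM by their distance in kb from the start of RPRM and by strand, with arrowheads for the direction of transcription. The lower panel gives the normalized value (linear) of the 3 listed genes in each library. Every knockdown value (red) exceeds every control value (blue) of the same gene, which the rule fixes for RPRM and RPL23AP29.

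Listed genes near the other members went both ways. Of 16 members placed in GENCODE 29, 12 (75.0%) had another listed gene within 500 kb, as did 64.6% of the other listed genes. Outside the chromosome 2 stretch there were 18 pairs of a member and a listed neighbour, 6 with a neighbour listed as higher and 12 with one listed as lower. HRC was the closest to a higher neighbour, with no gene in the 2.3 kb between it and TRPM4, a calcium-activated cation channel. TRPM4 rose from 1.90, 2.06 and 0.65 in the controls to 4.04, 2.81 and 5.07 in the knockdown libraries (limma log2 fold change 0.998, SE 0.26, adjusted p = 0.00310). The nearest listed gene to CACNA1C was FKBP4, a co-chaperone of HSP90, 97 kb away with 6 genes between, and its log2 ratio was -1.64.

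Overlap with other genes limits some of the members. In GENCODE 29, 12 of the 16 share ground with another annotated gene. YY2 lies wholly within MBTPS2 on the same strand, and unspliced MBTPS2 RNA could add reads to it. SPDYE2B lies within ENSG00000267645, on the opposite strand, which has no name in the table and whose log2 ratio was -0.97, opposite in sign to that of SPDYE2B. KCNMB2 overlaps the protein-coding gene AC117457.1 on the same strand. CACNA1C and TMEM229B overlap DCP1B and PLEKHH1 on the opposite strand. The sources used here do not say whether the authors' counting used the strand, so reads of such pairs cannot be told apart.

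Relatives of the members are described only where the table lists them. Entry to the table required a change, so a relative that stayed level would have no value here. Whether a family moved with its near-silent member therefore cannot be read from the listed relatives. The relatives below were chosen after their values were seen. Among 6 other Speedy genes, 4 were abundant enough for the test and all 4 rose. Of the 1290 tested genes, 55.7% were called higher and 42.0% called lower. SPDYE6 and SPDYE10 entered the test only through their knockdown values, since none of their controls reached 1. Nothing is therefore read from the count of 4. SPDYE6, which lies 293.9 kb from SPDYE2B on chromosome 7, rose from 0.16, 0.79 and 0.31 to 2.62, 2.30 and 1.39 (limma log2 fold change 1.13, adjusted p = 0.000259), and SPDYE16 rose from 1.85 ± 0.504 to 4.11 ± 0.444 (adjusted p = 0.00150). SPDYE1 (log2 fold change 0.76) and SPDYE10 (0.72) rose too. The 2 that were too low to test had the opposite sign: SPDYA stood at 0.16, 0.17 and 0.09 against 0.47, 0.74 and 1.19, and SPDYE15 was listed at 0 in all 3 knockdown libraries against 0.21, 0.21 and 0. Reads assigned to one of these close copies can belong to another.

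Semaphorins and their plexin receptors were mixed. Of 9 such genes in the table besides SEMA5A, 6 could be tested, and 5 of them rose, a share to be read against the 55.7% above. PLXND1, a plexin receptor, rose from 0.423 ± 0.244 to 1.41 ± 0.343 (limma log2 fold change 0.76, adjusted p = 0.000698). None of its controls reached 1, so PLXND1 entered the test only through its knockdown values. The receptor PLXNB1 rose from 3.05 ± 1.62 to 9.15 ± 0.693 (limma log2 fold change 1.42, adjusted p = 0.000725). SEMA3C (0.94), SEMA4B (0.87) and SEMA4F (0.66) rose as well, while PLXNB2 did not pass (0.41, adjusted p = 0.0981). Too low to test were SEMA3G, higher in the knockdown libraries, and SEMA4A and SEMA6B, lower. SEMA5A had the lowest control mean of all 10.

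Genes of the sarcomere that were already on in the control also changed, in both directions. MYOM2, the second myomesin, was abundant in LP-1 and rose from 45.04, 54.1 and 33.6 to 71.8, 81.3 and 72.4 (limma log2 fold change 0.78, adjusted p = 0.00230). On the same scale, MYOM1 stayed far below MYOM2 in both groups. The myosin heavy chains MYH3 (-0.56, adjusted p = 0.0123) and MYH15 (-1.39, adjusted p = 3.05e-05) fell instead. RYR3, a calcium release channel, rose by a log2 fold change of 0.58 (adjusted p = 0.0115), a call lost without control library 2 (0.0606) or knockdown library 2 (0.0798), and that of MYH3 was lost without knockdown library 3 (0.0777).

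**Figure D4:**
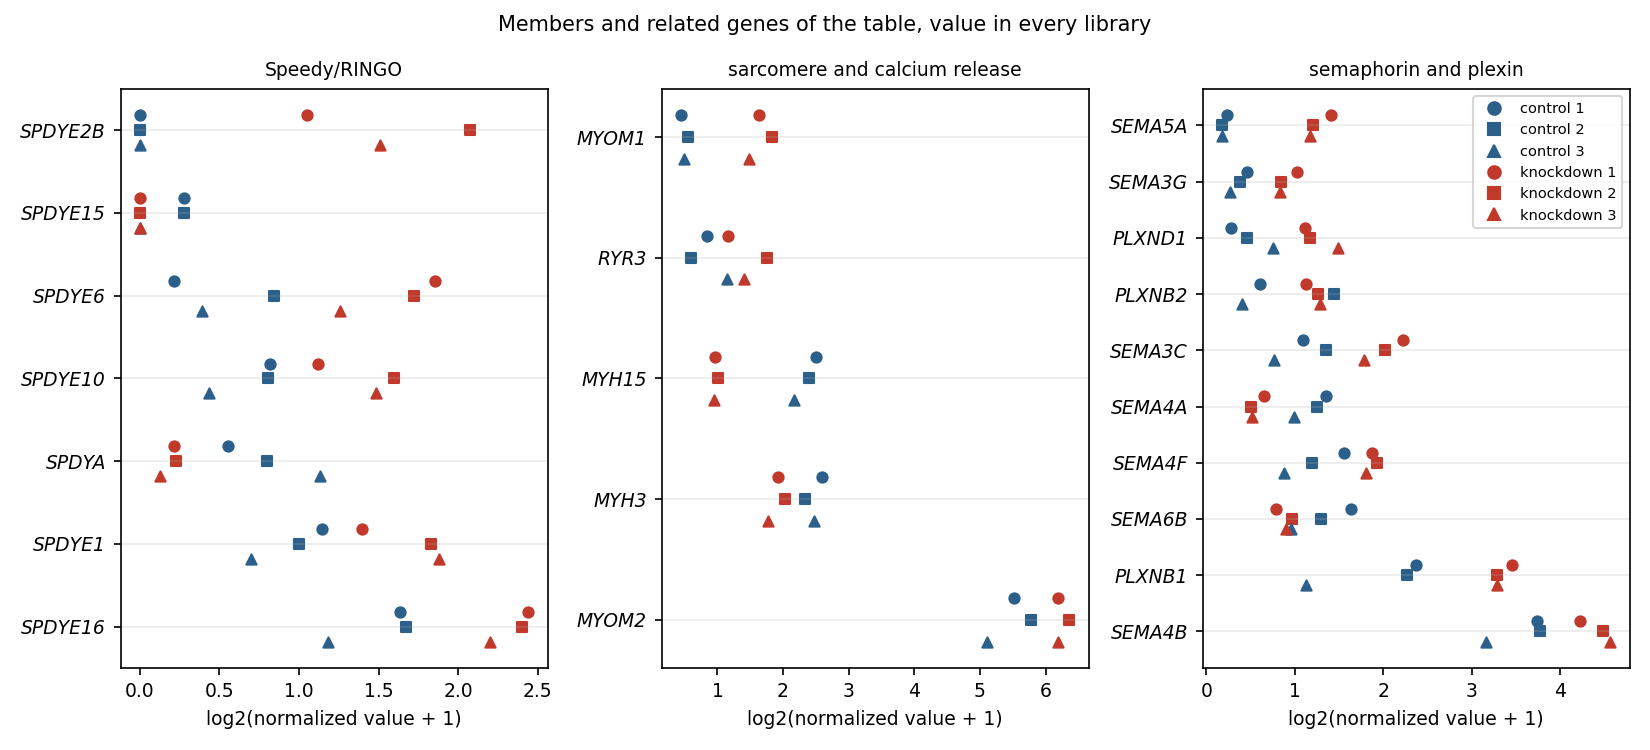
Values of the members SPDYE2B, MYOM1 and SEMA5A and of related listed genes in each library, as log2(normalized value + 1), with genes ordered by control mean in each panel. Most relatives are higher in the knockdown libraries (red) than in the controls (blue), while SPDYE15, SPDYA, MYH3, MYH15, SEMA4A and SEMA6B have lower knockdown means.

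For ion channels, a family set that held CACNA1C and KCNMB2, 26 genes were in the table. Of the 12 others that could be tested, 8 rose and 4 fell, where 55.7% of all tested genes rose and 42.0% fell. Among the potassium channels KCNQ3 rose from 1.17 ± 0.386 to 2.49 ± 0.466 (limma log2 fold change 0.69, adjusted p = 0.00350). KCND1 fell from 3.82 ± 2.01 to 1.71 ± 0.205 (-0.75, adjusted p = 0.0183), a call lost without control library 1 (0.0724). KCND2 rose (0.67, adjusted p = 0.0154), a call lost without control library 2 (0.0635), control library 3 (0.109) or knockdown library 1 (0.0558). The adhesion set, which held SEMA5A, had 18 rises and 6 falls among 25 tested genes, to be read against the same shares. The authors selected all genes of the table on these libraries, so none of these counts is independent evidence of a change.

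None of the 17 genes belonged to any of the 11 lists of cell type markers and immediate early genes, although 21 of the 209 list genes were in the table. No marker of T and NK cells (22 genes), erythroid cells and platelets (15), neurons (20) or the germ line (24) was in the table, so those have no values here and the other muscle, nerve and germ-line genes cannot be called silent. Of 21 muscle genes, MYH3 and TTN were listed, and TTN stood at 0.46, 0.20 and 0.27 against 0.38, 0.04 and 0.08, with overlapping groups. For LP-1's own lineage, 3 of 14 plasma cell genes were listed, and the other 11 have no value here. All 3 rose, beside 55.7% of all tested genes, among them ITGB7 (from 351 ± 92.5 to 1708 ± 45.8) and ITGA8 (from 7.06 ± 1.56 to 33.9 ± 2.44). The lists were chosen with earlier results of these data known, so these rises are a description only. Of 5 tested earlier B cell genes, 2 rose and 3 fell, beside the same shares of 55.7% and 42.0%. BLK rose from 4.37 ± 0.853 to 15.5 ± 0.821 and CIITA from 5.43 ± 1.26 to 17.9 ± 2.58. BLNK fell from 2.77 ± 0.436 to 0.220 ± 0.0781 and VPREB3 from 5.97 ± 0.619 to 0.510 ± 0.306. BLNK and VPREB3 entered the test only through their control values. CD72 fell too, and SPIB, too low to test, was higher in the knockdown libraries. Of 27 immediate early genes 6 were listed. Of the 5 tested, 2 rose (EGR1 and DUSP4) and 2 fell (ATF3 and DUSP5), beside 55.7% and 42.0% of all tested genes. EGR1 entered the test only through its knockdown values. DUSP4, a phosphatase that turns off MAP kinases, rose from 7.22 ± 1.57 to 19.9 ± 0.751. Its relative DUSP5 fell from 6.42 ± 1.64 to 3.06 ± 0.230, and ATF3, a stress-induced transcription factor, from 176 ± 60.5 to 54.7 ± 5.52; both were named after their values were seen.

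Markers of other cells that could be in a culture were few. Of 19 myeloid genes only CD33 was listed, at 0.61, 0.71 and 1.10 in the knockdown libraries against 0.55, 0.07 and 0.33 in the controls. Of 15 fibroblast and endothelial genes, PECAM1, which plasma cells can also express, rose from 1.33 ± 0.686 to 5.08 ± 0.805, and COL1A1 stood at 0.217 ± 0.197 against 0.593 ± 0.125. Of 14 epithelial genes only CLDN4 was listed and it fell (limma log2 fold change -0.63, adjusted p = 0.00675). The part of other cells in the 17 genes was not tested.

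The 13 genes that met the limits but were removed by name were mostly non-coding in GENCODE 29. They comprised 6 without a name, 2 with a hyphen (IFNG-AS1 and HOMER3-AS1), and 1 each from the LINC genes (LINC01801), the solute carriers (SLC14A1) and the numbered pseudogenes (SNX18P3). The other two were CCR3 and EGR1. CCR3, an eotaxin receptor, stood at 4.45, 5.14 and 4.40 against 0.46, 0.35 and 0.31, and EGR1, an immediate early transcription factor, at 1.59, 2.12 and 1.77 against 0.05, 0.04 and 0.02. Both had larger ratios of means (12.5 and 49.8) than any of the 14 members with a ratio. EGR3 did not reach the knockdown limit, with 0.48, 0.78 and 0.58. IFNG-AS1, named after its values were seen, is an antisense RNA of the interferon gamma locus and stood at 2.64, 2.52 and 1.43 against 0.26, 0.33 and 0.15, a level per length close to that of IGSF11.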

How the data were processed

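RNA of 6 LP-1 libraries (3 with RNF5 depleted, 3 non-target controls) was analysed from 1 table of 1877 genes that the authors had already selected as changed. The values per library and the group means deposited by the authors are a normalized signal with 2 decimals, on an unnamed scale. The authors also deposited, per gene, a fold ratio, its log2 value, a p-value and an adjusted p-value; the sources used here do not name that test. Bowtie 0.12.2 and build hg19 are listed, without their roles, per the submitters' processing notes.

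Means, SDs and ratios were computed per gene in Python 3.11.15. A fit across all genes of log2(value + 1) used limma 3.58.1 (R 4.3.3; prior variance allowed to follow the mean), for the 1290 genes that reached 1 in 3 or more libraries. Genes were called at a Benjamini-Hochberg adjusted p under 0.05. The fit and the adjustment ran only over genes that the authors had already selected as changed in these libraries, and 1260 of the 1290 were called. The adjusted p-values therefore do not control a false discovery rate and serve as a description. No test was applied to the members. They and the lists were chosen with earlier results of these data known. Values were not whole reads, so no count test was run. The fit was also run on simulated data in which most genes were unchanged, unlike this table, so that run does not bear on the calls here.

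Every member is named. Values in every library are given for all of them, and for each list means or library values of up to 2 other genes with the smallest p. The further list genes BLK, CIITA, CD72, SPIB, DUSP5 and ATF3 were named after their values were seen. Related genes were chosen after their values were seen. GENCODE 29, matched for 1721 genes, and RefSeq supplied classes, neighbours and promoters.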

Additional observations from a re-analysis of the deposited data

How the results depend on the processing

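The number of genes meeting the rule depended on its limits. It was 4 with a control limit of 0.25 and 95 with a limit of 1, and 66 with a knockdown limit of 0.5 and 0 with a limit of 2. After lowering the knockdown values by the median shift of 0.173 (log2) against the authors' folds, an alternative chosen after seeing the data, 11 remained of the 17, and CACNA1C, CCN2, KCNMB2, SPDYE2B, TMEM229B and YY2 were lost. Leaving out each library in turn gave 19 to 38 genes, always with all 17 kept, as fewer values then have to pass. The median log2 ratio of the members was 0.93 with a pseudocount of 1, 2.46 with 0.01 and 1.97 with the offset removed. It ranged from 2.05 to 2.17 when 1 library was left out. No member changed direction in any of these settings, which the rule largely fixes.

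Over the whole table limma called 1260 of 1290 tested genes (718 higher and 542 lower). Under the alternatives it called between 1076 (of 1130 tested) and 1787 (of 1877 tested). Same-numbered libraries of the 2 groups did not deviate together (correlations -0.165, -0.071 and -0.082), so the numbers were not taken as pairs. The fit with the replicate block called 1272 of 1290 genes. Both fits called 15 of the 16 list genes tested, beside nearly all genes of this preselected table, so nothing is read from that count. PLXNB2 passed with the block (adjusted p = 0.0173) and without control library 2 (0.00128). For calls lost without 1 library, the cause was not tested. SPDYE6, SPDYE10, PLXND1 and EGR1 dropped out of the fit when a knockdown library was left out. BLNK and VPREB3 dropped out when a control library was left out. The calls of these genes were not checked in those settings. Depth is unknown, so the counting error of values near 0 could not be given.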
